A study of Sus scrofa with 44 samples.

Results

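The genes described here are 8 myosin chain genes of developing pig muscle, taken by symbol: the heavy chain genes MYH3 and MYH8, the essential light chain genes MYL1, MYL3, MYL4 and MYL6B, and the regulatory light chain genes MYL2 and MYLPF. Of these 8 genes, 7 had values among the 22427 Ensembl gene IDs of each expression table. MYLPF was found under its current symbol MYL11. MYL6B matched no gene ID with values and was not analysed here. The study profiled longissimus dorsi, the long muscle of the back, from pigs before birth on days 33, 40, 50, 60, 70 and 95 after mating, called E33, E40, E50, E60, E70 and E95. The RNA was rRNA-depleted and no treatment was labelled. Each stage had 3 input libraries, which measured total RNA, and 3 libraries made after immunoprecipitation with an antibody against N6-methyladenosine (m6A), a methyl mark on messenger RNA. PK15, a pig kidney cell line, was profiled from polyA-selected and from rRNA-depleted RNA and served here only for its 2 peak lists. Breed, sex and pooling were not given in the sources used here, and the labels do not say whether the 3 replicates of a stage came from separate animals, so p-values measure the spread between these samples, which may be technical.

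Muscle myosin is a hexamer of a pair of heavy chains, which carry the motor, with an essential and a regulatory light chain wrapped around each neck. MYH3 encodes the embryonic and MYH8 the perinatal heavy chain, which precede the adult fast and slow chains in mammalian muscle. MYL1 encodes the essential light chain of fast fibres, MYL3 that of slow fibres and ventricle, and MYL4 the embryonic and atrial one. MYLPF encodes the fast skeletal and MYL2 the slow skeletal and ventricular regulatory light chain. In the RefSeq annotation of Sscrofa11.1, all 7 measured genes lie on the minus strand. MYH3 (ENSSSCG00000018007) is at chr12:55351152-55373236 and MYH8 (ENSSSCG00000018005) at chr12:55135651-55166983, in the same cluster, and MYL4 (ENSSSCG00000017307) is at chr12:16774655-16792213. MYL1 (ENSSSCG00000016157) is at chr15:113038083-113051315, MYL3 (ENSSSCG00000011325) at chr13:29730271-29735616, MYL2 (ENSSSCG00000039710) at chr14:32205953-32213848 and MYLPF (ENSSSCG00000007799) at chr3:17938129-17941071.

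The 2 heavy chains are close copies, and the sequences below show how far they can be told apart where both carried m6A peaks at every stage. Their coding sequences, 5820 bases each in RefSeq, were identical at 81.4% of 5795 aligned positions. RefSeq lists both genes under other symbols, with the products myosin-3, marked low quality, and myosin-8. The identity and the printed bases rest on these models. The longest identical run was 185 bases, and 2.67% of all 100-base windows of MYH8 were also found in MYH3, so reads from such stretches could have been assigned to either gene, in a way not given in the sources used here. In each pair, read 5′ to 3′ along the coding strand, capitals mark the bases that differ between the genes. The first pair, coding bases 3330 to 3450 of MYH3 (chr12:55358554-55359073, introns included) and 3342 to 3462 of MYH8 (chr12:55145857-55146062, introns included), differed at 26 of 121 bases.
MYH3: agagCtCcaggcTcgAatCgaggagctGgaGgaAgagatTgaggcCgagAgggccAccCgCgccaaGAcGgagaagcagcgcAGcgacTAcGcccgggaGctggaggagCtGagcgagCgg
MYH8: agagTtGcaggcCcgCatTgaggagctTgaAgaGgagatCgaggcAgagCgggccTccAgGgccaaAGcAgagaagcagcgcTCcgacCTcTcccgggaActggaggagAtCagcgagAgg
The second pair, coding bases 5001 to 5128 of MYH3 (chr12:55353792-55353919) and 5013 to 5140 of MYH8 (chr12:55139544-55139671), differed at 10 of 128 bases.
MYH3: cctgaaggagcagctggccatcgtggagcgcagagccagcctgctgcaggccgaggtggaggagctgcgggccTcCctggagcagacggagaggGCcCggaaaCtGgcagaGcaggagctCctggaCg
MYH8: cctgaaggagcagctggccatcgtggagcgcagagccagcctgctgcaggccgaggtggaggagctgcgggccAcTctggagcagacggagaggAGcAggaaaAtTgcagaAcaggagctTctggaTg

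The light chain sequences shown are those under their peaks. In MYL4, coding bases 7 to 156 (chr12:16786045-16789937, introns included) lay in the peak of all 5 stage lists that had one. The only MYL3 peak covered coding bases 1 to 90 (chr13:29735497-29735586). Both stretches encode the start of the protein, and neither held GGAC, a form of the motif in which m6A is usually found. Forms of that motif without GGAC were not searched.
MYL4: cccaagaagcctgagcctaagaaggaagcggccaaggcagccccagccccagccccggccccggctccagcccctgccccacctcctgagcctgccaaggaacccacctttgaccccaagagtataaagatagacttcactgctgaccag
MYL3: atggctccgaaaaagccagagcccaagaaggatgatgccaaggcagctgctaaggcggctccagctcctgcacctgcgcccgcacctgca
The MYL1 peak found at every stage lay between RefSeq exons, and its stretch common to all 6 stage lists, 181 bases at chr15:113040741-113040921, held GGAC at 2 places. They are capitals in the 30 bases at chr15:113040769-113040798.
MYL1: agagaagaaaagaGGACaagaaaGGACagg

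The deposited expression values are TPM, a measure of transcript abundance corrected for length, which have the same sum in each library whatever its depth. Between 37.4% and 72.4% of a library's TPM belonged to a single gene ID, ENSSSCG00000032395, and another held 17.3% and 14.4% in E40 replicate 2 and E50 replicate 3, against at most 1.19% in the other libraries. Levels are therefore given as scaled TPM, each library divided by its median ratio to the other libraries, with factors from 0.301 to 2.00. On the log2(TPM + 1) scale the median of all 13334 tested genes moved by 0.00 from E33 to E95 after scaling and by -1.02 as deposited, so a change is given on both scales. The tissue label was checked against marker genes. The summed scaled TPM of the 7 matched skeletal muscle markers ran from 812 to 925 at E33 and from 7731 to 12870 at E95. The E95 sum was mostly ACTA1 (mean 396 at E33 and 6340 at E95). Of these 7 genes, 6 were called higher and 0 lower on scaled TPM, and 3 higher and 1 lower as deposited. The lower one was MYOG (log2 change -1.32, adjusted p = 0.0401 by limma), which changed by -0.06 on scaled TPM (adjusted p = 0.793). The 5 matched cardiac markers, of a heart that shares light chains with slow muscle, summed to 48.8 to 66.0 at E33 and 233 to 338 at E95, nearly all of it MYH6, which was called higher on scaled TPM. MYBPC3 reached at most 4.04 scaled TPM, NPPB was at 0 in all 18 libraries, NKX2-5 in 17 (0.533 in the other) and TBX20 in 10 (at most 0.387). The sum of the 4 matched neuronal markers was 103 to 134 at E33 and 2.44 to 4.75 at E95, and that of the 5 cartilage markers 115 to 163 and 29.5 to 37.7. The 3 matched erythroid markers summed to 77.7 to 217.6 at E33, mostly HBZ, an embryonic globin gene, and to 2.74 to 9.21 at E95. ALAS2 and AHSP were not called. The sums of the 4 endothelial markers (16.2 to 21.0 and 59.8 to 72.2, all 4 called higher on scaled TPM and none as deposited), of the 6 connective tissue markers (2799 to 3652 and 5711 to 8854) and of the 7 smooth muscle markers, which include DES (306 to 367 and 1287 to 2164), were higher at E95. The connective tissue sum was mostly COL1A1 (mean 1957 at E33 and 4641 at E95). Of those 6 genes, 4 were called higher and 2 lower on scaled TPM, and 0 higher and 2 lower as deposited. The rise of the smooth muscle sum was mostly DES, also a skeletal marker (mean 151 and 1581). Of the 5 smooth muscle markers tested, 1 was called higher and 2 lower scaled, and 1 higher and 4 lower as deposited. The part of all these marker genes in the differences from E33 was not tested. In bulk muscle, fewer cells of a type and less RNA per cell cannot be told apart.

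From E33 to E95, MYH8, MYL1, MYL2 and MYLPF rose and MYH3 and MYL4 fell under both scalings, and MYL3 rose under the scaled values only. On scaled TPM all 7 measured genes passed at an adjusted p under 0.05 (limma with Benjamini-Hochberg adjustment over all tested genes), 5 higher and 2 lower. Of all genes tested, 46.7% were called in this comparison, 23.7% higher and 23.1% lower. On TPM as deposited 6 of the 7 passed, 4 higher and 2 lower, against 48.5% of all genes, 2.64% higher and 45.8% lower. Over the 6 stages together, limma's F test called all 7 under both scalings, against 47.3% of all genes on scaled TPM and 20.1% as deposited. The median log2 change of the 7 genes from E33 to E95 was 2.98 scaled and 1.71 as deposited, beside the medians of all genes given above.

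**Figure D1:**
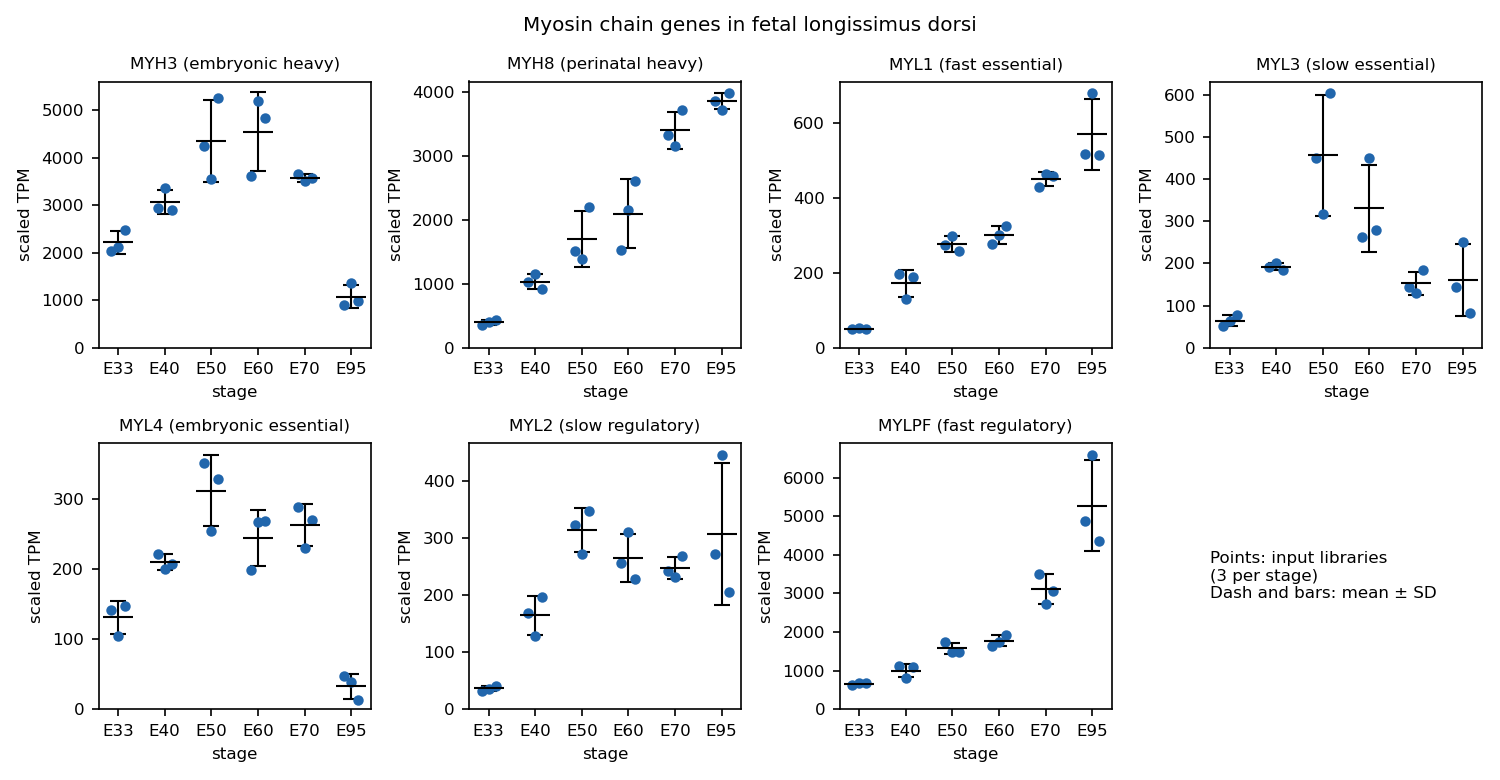
Scaled TPM (y axis, from 0, a scale of its own in each panel) of the 7 measured genes at each stage (x axis); points are the 3 input libraries, the dash is their mean and the bars the SD. MYH3 and MYL4 dropped at E95, to 1075 and 32.8 on average, while MYH8, MYL1 and MYLPF had their highest means there.

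MYH3, the embryonic heavy chain gene, had the highest mean of the 7 from E33 to E70 and fell after E70. In replicates 1 to 3 it measured 2037, 2126 and 2480 scaled TPM at E33, 2938, 3363 and 2901 at E40, and 4253, 3552 and 5262 at E50. It then measured 3613, 5194 and 4833 at E60, 3661, 3498 and 3571 at E70, and 892, 1350 and 985 at E95. All E95 values lay below those of every earlier stage, and the E50, E60 and E70 ranges overlapped. From E60 the means were 4547 ± 829, 3577 ± 81.9 and 1075 ± 242 by stage (SD, n = 3). The drop from E70 to E95 was 3.38-fold, a log2 change of -1.76 (95% interval -2.15 to -1.36, adjusted p = 2.92e-05), and -2.31 as deposited (adjusted p = 0.0232). Against E33, E95 was lower by a log2 change of -1.06 scaled (SE 0.18, adjusted p = 0.000251) and of -2.34 as deposited (adjusted p = 0.000576). The steps before that did not pass on scaled TPM, with log2 changes of 0.47 from E33 to E40 (adjusted p = 0.0821) and 0.49 from E40 to E50 (adjusted p = 0.236). As deposited they were -0.25 (adjusted p = 0.702) and -0.0036 (adjusted p = 1).

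MYH8, the perinatal heavy chain gene, rose between E33 and E95. It measured 357, 403 and 436 scaled TPM at E33, 1030, 1147 and 912 at E40, and 1519, 1388 and 2208 at E50. It reached 1533, 2154 and 2615 at E60, 3329, 3163 and 3716 at E70, and 3870, 3729 and 3983 at E95. The E33, E40, E70 and E95 ranges did not overlap those of any other stage, whereas E50 and E60 overlapped each other. The step from E70 to E95 did not pass, with a log2 change of 0.19 scaled (adjusted p = 0.602). As deposited it was -0.37 (adjusted p = 0.685). E95 was 9.69-fold above E33, a log2 change of 3.28 (SE 0.19, adjusted p = 7.78e-09), and 2.00 as deposited (adjusted p = 0.0023). Among single steps the one from E33 to E40 passed on scaled TPM, with a log2 change of 1.37 (95% interval 0.95 to 1.78, adjusted p = 0.000237). The same step was 0.64 as deposited and did not pass (adjusted p = 0.352).

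The ratio of the 2 heavy chain genes within a library does not depend on the scaling. The ratio of MYH3 to MYH8 averaged 5.55 at E33 (geometric mean, range 5.28 to 5.71), 2.99 at E40 and 2.57 at E50. It then averaged 2.19 at E60, 1.05 at E70 (range 0.961 to 1.11) and 0.274 for E95 (range 0.230 to 0.362). At E70 the 3 libraries lay on both sides of an equal level. As a share of the summed TPM of both genes, MYH8 held 15.3% ± 0.579 at E33, 25.1% ± 1.05 at E40 and 28.0% ± 1.62 at E50 (SD, n = 3). The share was 31.4% ± 3.22 at E60, 48.7% ± 1.99 at E70 and 78.3% ± 4.25 in the E95 libraries. The log2 ratio of MYH3 to MYH8 fell with day post coitus over the 18 libraries (Pearson r = -0.975 and Spearman rho = -0.981, both adjusted permutation p = 2.5e-05 over 5 ratios, with a raw p of 1e-05 that is the smallest 100000 resamples can give). Without the 2 libraries farthest from the median day, r ran from -0.967 to -0.961 depending on which 2 of the 3 E95 libraries were left out, and without all 3 it was -0.943. E95 and E33 differed 20.3-fold in this ratio, and the exact two-sided permutation test of 3 against 3 libraries gave p = 0.1, the smallest it can give.

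**Figure D2:**
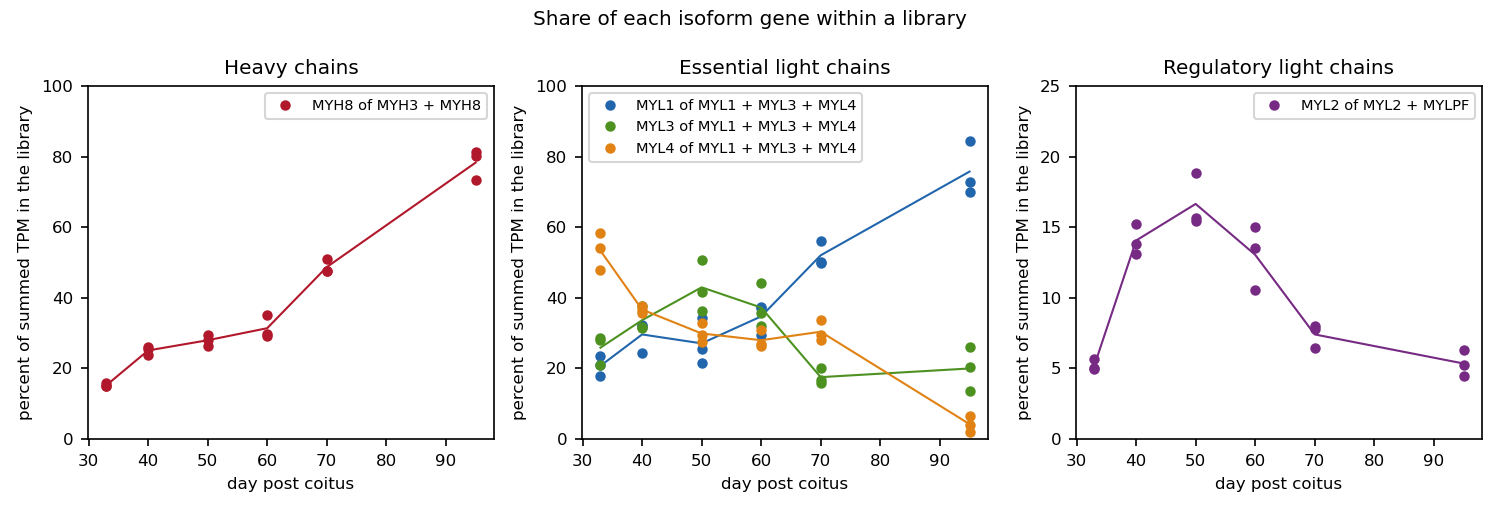
Share of the summed TPM of a group of isoform genes held by each gene within a library (y axis, percent, 0 to 25 in the right panel) against day post coitus (x axis); points are the 18 input libraries and lines join the stage means. MYH8 passed from 15.3% to 78.3% of the heavy chain pair, MYL4 from 53.4% to 4.24% of the essential light chains, and MYL2 was highest at E50 with 16.7% of the regulatory pair.

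Among the essential light chains, MYL4, the embryonic one, fell steeply between E70 and E95. It measured 141, 105 and 147 scaled TPM at E33, 223, 200 and 208 at E40, and 353, 255 and 329 at E50. It measured 199, 267 and 269 at E60, 290, 231 and 270 at E70, and 47.1, 38.3 and 12.9 at E95. The 3 E95 values lay below all the others, and E60 and E70 overlapped. The drop from E70 to E95 was 8.87-fold, a log2 change of -3.15 (95% interval -3.87 to -2.43, adjusted p = 3.41e-05), and -3.69 as deposited (adjusted p = 0.00272). Against E33 the log2 change at E95 was -2.14 (SE 0.34, adjusted p = 0.000112), and -3.39 as deposited (adjusted p = 0.000107). The earlier step from E33 to E40 was 0.69 scaled (adjusted p = 0.16) and -0.026 as deposited (adjusted p = 0.98) and did not pass, but the scaled one passed when E95 replicate 3 was left out of the fit (adjusted p = 0.012).

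MYL1, the fast essential light chain gene, rose between E33 and E95. It measured 50.7, 51.6 and 48.5 scaled TPM at E33, 195, 130 and 189 at E40, and 274, 298 and 258 at E50. At E60 it measured 277, 301 and 325, at E70 429, 463 and 459, and at E95 517, 679 and 514. Every stage lay above the one before it except E60, which overlapped E50. The step from E70 to E95 did not pass, with a log2 change of 0.33 scaled (adjusted p = 0.174). As deposited it was -0.23 (adjusted p = 0.83). E95 was 11.04-fold above E33, a log2 change of 3.47 (SE 0.15, adjusted p = 3.39e-10), and 2.20 as deposited (adjusted p = 0.00534). The step from E33 to E40 was 1.73 scaled (adjusted p = 3.7e-06) and 1.01 as deposited (adjusted p = 0.249). The step from E40 to E50 was 0.71 and passed (adjusted p = 0.0329). That call was lost without E40 replicate 2 (adjusted p = 0.0788), E40 replicate 3 (0.0509), E50 replicate 1 (0.103), E50 replicate 2 (0.0548), E50 replicate 3 (0.0807) or E70 replicate 3 (0.0509), and as deposited (log2 change 0.22, adjusted p = 0.841).

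MYL3, the slow essential light chain gene, was highest in the middle of the series. It measured 50.7, 62.7 and 76.9 scaled TPM at E33, 191, 201 and 185 at E40, and 450, 317 and 605 at E50. It was then at 263, 451 and 279 at E60, 144, 130.5 and 184 at E70, and 145, 252 and 82.96 at E95. The E50 range lay above those of E33, E40, E70 and E95 and overlapped that of E60. E40 exceeded E33 by a log2 change of 1.61 (SE 0.34, adjusted p = 0.00453), or 0.89 as deposited (adjusted p = 0.255). The step from E40 to E50 was 1.20 scaled (adjusted p = 0.109) and 0.70 as deposited (adjusted p = 0.769), and the step from E60 to E70 was -1.08 (adjusted p = 0.15) and -1.41 (adjusted p = 0.943), none of which passed. E95 exceeded E33 by 1.20 on scaled TPM (95% interval 0.47 to 1.93, adjusted p = 0.01), but the log2 change was -0.07 as deposited (adjusted p = 0.916). Without E95 replicate 2, the highest of its stage, the scaled change was 0.80 and did not pass (adjusted p = 0.0533).

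Within the essential light chains the leading gene changed with stage. MYL4 held 53.4% ± 5.24 of the summed TPM of MYL1, MYL3 and MYL4 at E33, MYL3 had the largest mean share at E50 with 43.0% ± 7.25, and MYL1 led at E70 with 52.1% ± 3.58 and at E95 with 75.8% ± 7.52 (SD, n = 3). At E40 the scaled TPM of MYL4, MYL3 and MYL1 overlapped their neighbours, with means of 210, 192 and 171. The log2 ratio of MYL4 to MYL1 fell with day (r = -0.936, rho = -0.956, both adjusted permutation p = 2.5e-05, n = 18), from a geometric mean of 2.58 at E33 to 0.0505 at E95, or 51.1-fold. Its r was -0.940 to -0.898 without the 2 farthest libraries and -0.911 without E95. The ratio of MYL3 to MYL1 fell as well (r = -0.819, adjusted permutation p = 8.33e-05, and rho = -0.756, adjusted permutation p = 0.000883), from 1.24 at E33 to 0.256 at E95, with r from -0.793 to -0.712 without the 2 farthest libraries and -0.663 without E95. That ratio did not fall evenly: it averaged 1.60 at E50 and 1.07 at E60, and 0.336 at E70. For both ratios the exact permutation test of E95 against E33 gave p = 0.1, its smallest possible value.

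MYLPF, the fast regulatory light chain gene, rose to become the most abundant of the 7 at E95. It measured 616, 668 and 676 scaled TPM at E33, 1108, 794 and 1096 at E40, and 1739, 1492 and 1492 at E50. It went on to 1633, 1751 and 1921 at E60, 3515, 2737 and 3074 at E70, and 4866, 6603 and 4369 at E95. The ranges of E50 and E60 overlapped and all other stages were apart. E95 was 7.95-fold above E33, a log2 change of 2.99 (SE 0.17, adjusted p = 4.47e-09), and 1.71 as deposited (adjusted p = 0.0154). Its steps from E60 to E70 (0.81, adjusted p = 0.0237) and from E70 to E95 (0.75, adjusted p = 0.00809) passed on scaled TPM and not as deposited, where they were 0.48 (adjusted p = 0.943) and 0.19 (adjusted p = 0.855). The E60 to E70 call was lost without E60 replicate 1 (adjusted p = 0.0925), E60 replicate 2 (0.0778), E70 replicate 1 (0.124) or E70 replicate 3 (0.0884). The step from E33 to E40 was 0.60 scaled (adjusted p = 0.0217) and -0.13 as deposited (adjusted p = 0.879), and it was lost without E33 replicate 1 (adjusted p = 0.0748), E33 replicate 3 (0.0538), E40 replicate 1 (0.094) or E40 replicate 3 (0.0897).

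MYL2, the slow regulatory light chain gene, rose from E33 to E40 on scaled TPM and had means between 247 and 314 from E50 on. It measured 32.5, 35.0 and 40.8 scaled TPM at E33, 168, 127 and 197 at E40, and 323, 272 and 347 at E50. Later it measured 256, 309 and 227 at E60, 241, 232 and 268 at E70, and 271, 445 and 204 at E95. E33 lay below every other stage, E50 lay above E70, and the E60 and E95 ranges overlapped both. E40 exceeded E33 by 4.39-fold, a log2 change of 2.14 (95% interval 1.63 to 2.64, adjusted p = 2.9e-05), and by 1.43 as deposited (adjusted p = 0.124). E95 exceeded E33 by 2.98 scaled (SE 0.24, adjusted p = 1.27e-07) and by 1.72 as deposited (adjusted p = 0.0163).

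Within the regulatory pair, the share of MYL2 was highest in the middle of the series. Of the summed TPM of MYL2 and MYLPF, MYL2 held 5.23% ± 0.406 at E33, 14.1% ± 1.06 at E40 and 16.7% ± 1.93 at E50 (SD, n = 3). It held 13.1% ± 2.26 at E60, 7.41% ± 0.868 at E70 and 5.35% ± 0.927 in the E95 libraries. All libraries of E40, E50 and E60 lay above all libraries of the other stages, and the E33 and E95 ranges overlapped. A straight trend with day was not found (r = -0.349, adjusted permutation p = 0.156, rho = -0.172, adjusted permutation p = 0.498, n = 18), and the exact permutation test of E95 against E33 gave p = 1. The r was -0.178 to -0.0751 without the 2 farthest libraries and 0.127 without E95. The summed essential over the summed regulatory light chains averaged 0.354 at E33, 0.551 at E50 and 0.136 at E95. That log2 ratio fell with day over all stages (r = -0.815, adjusted permutation p = 0.00015, and rho = -0.574, adjusted permutation p = 0.019), with r from -0.682 to -0.678 without the 2 farthest libraries. Without E95 the relation was -0.428 and did not pass (adjusted permutation p = 0.14).

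Between consecutive stages, on scaled TPM, most calls fell in the first and the last step. From E33 to E40, 5 of the 7 genes were called, all higher (MYH8, MYL1, MYL3, MYL2 and MYLPF), against 20.9% of all genes and 9.97% higher. From E40 to E50 MYL1 alone was called, against 1.51% of all genes. That count was 0 without any of the 6 libraries named for MYL1 above and 4 without E95 replicate 2 or E95 replicate 3. No gene of the 7 was called from E50 to E60 by limma, with 0 at an unadjusted p under 0.05, against 0.817% of all genes. From E60 to E70 MYLPF alone was called, against 1.73% of all genes. That count was 0 without any of the 4 libraries named for MYLPF above, and 2 without E40 replicate 2 or E95 replicate 2 (with MYL1) and without E50 replicate 3 or E60 replicate 3 (with MYH8). From E70 to E95, 3 were called, against 13.6% of all genes: MYH3 and MYL4 lower (6.73% of all genes) and MYLPF higher (6.84%).

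On TPM as deposited the first 4 steps had no call among the 7. From E33 to E40 the count was 0 against 4.87% of all genes, with 1 gene at an unadjusted p under 0.05. From E40 to E50 it was 0 against 0.00750%, with 0 at an unadjusted p under 0.05. From E50 to E60 it was 0 against 0.0600%, and from E60 to E70 0 against 0.0825%, with 1 gene at an unadjusted p under 0.05 in each. From E70 to E95 MYH3 and MYL4 were called, both lower, against 0.285% of all genes and 0.210% lower. The median standard error over all genes was 0.441 as deposited and 0.164 after scaling.

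**Figure D3:**
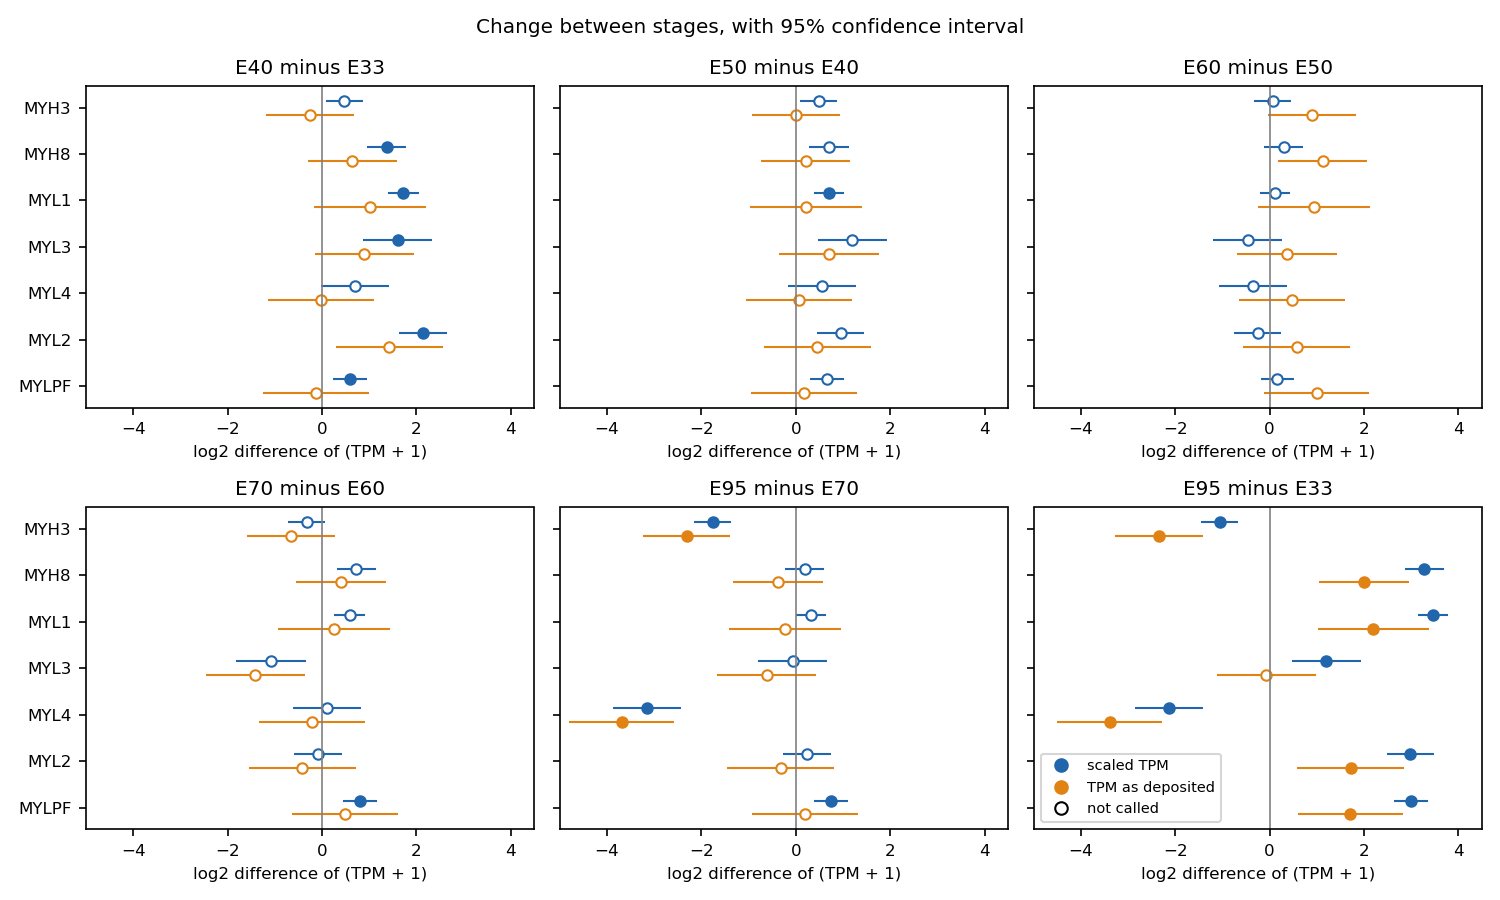
Log2 difference of TPM + 1 between stages (x axis) for each of the 7 genes (y axis), one panel per comparison, with limma's 95% confidence interval; blue is scaled TPM, orange TPM as deposited, and filled points have an adjusted p under 0.05. The drops of MYH3 and MYL4 from E70 to E95 are filled in both colours, at -1.76 and -3.15 scaled. From E33 to E40, MYH8, MYL1, MYL3, MYL2 and MYLPF are filled in blue only, and MYH3 and MYL4 are open in both colours.

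The order of the 7 genes by scaled TPM, which is per transcript length, turned over between E33 and E95. At E33 the order was MYH3 (mean 2215), MYLPF (653), MYH8 (399), MYL4 (131), MYL3 (63.4), MYL1 (50.3) and MYL2 (36.1), and only MYL3 and MYL1 overlapped. At E50 and E60, MYH3 led, MYH8 and MYLPF overlapped, and the other 4 genes formed a group with overlapping neighbours between 245 and 457. At E70 the ranges of MYH3 (mean 3577), MYH8 (3402) and MYLPF (3109) overlapped, and MYL1 (450) stood apart. At E95 the order was MYLPF (5280), MYH8 (3861), MYH3 (1075), MYL1 (570), MYL2 (307), MYL3 (160) and MYL4 (32.8), and only MYL2 and MYL3 overlapped.

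The genes most like a member were named by the Pearson correlation of log2(scaled TPM + 1) over the 18 libraries, as a description. The libraries share stage and scaling, so high values are common. Nearest to MYH3 were UBXN11 (r = 0.958), NES, which encodes the intermediate filament protein nestin (0.949), and MICAL1 (0.947). Nearest to MYH8 were SPTB, a spectrin gene (0.993), TNNI2, the fast troponin I gene (0.988), and MYOZ1, a Z-disc gene (0.987). Nearest to MYL4 were TNNT2, the cardiac and embryonic troponin T gene (0.946), MYH3 (0.925) and CPE (0.922). Nearest to MYL2 were EMILIN2 (0.973), LMOD2, a leiomodin gene of the thin filament (0.954), and IL13RA1 (0.951). Among the members MYH8 and MYL1 had an r of 0.966, and MYH3 and MYH8 one of -0.074.

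The other myosin genes were taken from a list of 38 genes, of which 30 matched a gene ID and 26 were tested. On scaled TPM 13 of the 26 were higher and 2 lower at E95 than at E33. As deposited, 5 were higher and 5 lower. Over all tested genes the shares in this comparison, given above, were 23.7% higher and 23.1% lower scaled, and 2.64% and 45.8% as deposited. The adult heavy chain symbols MYH1, MYH2, MYH4 and MYH7 matched no gene ID and were not analysed here. Of the 10 other heavy chain genes of that part of the list, MYH6, the alpha cardiac heavy chain gene, rose from 55.3 ± 8.71 scaled TPM at E33 to 280 ± 53.5 at E95 (log2 change 2.31, adjusted p = 1.7e-06, and 1.05 as deposited, adjusted p = 0.0762). MYH14, a non-muscle heavy chain gene, rose by 2.73 (adjusted p = 1.39e-09, and 1.64 as deposited, adjusted p = 0.0024). MYH15 changed by -2.34 (adjusted p = 9.74e-08) and by -3.19 as deposited (adjusted p = 2.6e-05). MYH7B had its highest mean at E50, 194 ± 42.2 scaled TPM, against 49.6 ± 11.99 at E33 and 40.0 ± 5.94 at E95. Its difference between E95 and E33 was -0.29 scaled (adjusted p = 0.273) and -1.54 as deposited (adjusted p = 0.0172).

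Genes that act on these chains are read against the same shares of all genes, 23.7% higher and 23.1% lower scaled and 2.64% and 45.8% as deposited. Of the 6 matched light chain kinase and phosphatase genes, 4 were higher and none lower on scaled TPM, and 1 was higher as deposited. MYLK2, the skeletal muscle light chain kinase, was at 5.44 ± 1.41 scaled TPM at E33, 55.7 ± 12.4 at E50, 51.7 ± 1.32 at E70 and 112 ± 12.8 at E95 (log2 change 4.15, adjusted p = 1.94e-10, and 2.97 as deposited, adjusted p = 0.000111). Of the 11 myosin folding and binding genes, 7 were higher and 1 lower scaled, and 3 were higher and 3 lower as deposited. MYBPC1, the slow myosin binding protein C gene, rose by 3.38 (adjusted p = 1.58e-10, and 2.12 as deposited, adjusted p = 0.00416). MYBPC2, the fast one, stayed at 1.07 ± 0.577 scaled TPM or below on average up to E60, and was at 7.84 ± 0.928 at E70 and 43.2 ± 11.2 at E95 (log2 change from E33 to E95 4.43, adjusted p = 8.15e-10, and 3.45 as deposited, adjusted p = 2.95e-06). MYBPH, another thick filament binding gene, was at 76.0 ± 5.29 at E70 and 16.3 ± 7.11 at E95, and changed from E33 to E95 by -1.94 (adjusted p = 9.81e-06) and by -3.17 as deposited (adjusted p = 0.00012). The myosin chaperone gene UNC45B rose by 0.54 scaled (adjusted p = 0.00573), with -0.70 as deposited (adjusted p = 0.213). None of the 4 tested other light chain genes, MYL5, MYL6, MYL9 and MYL12A, was called under either scaling.

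The m6A peaks were deposited as 1 list per stage, so they have no replicates and no test. The fold of a peak is the authors' value for immunoprecipitated over input signal, and ranks it only within its own list. The 6 stage lists held 4928 peaks at E40, the fewest, to 8685 at E33. They held 84 peaks of the 7 genes, 33 in MYH3, 32 in MYH8, 13 in MYL1, 5 in MYL4 and 1 in MYL3. MYL2 and MYLPF had no peak in any stage list, although MYLPF was the most abundant of the 7 genes at E95. The 2 PK15 lists held no peak of any of the 7. No expression values of PK15 were used here, so whether these cells expressed the 7 genes is not known. Of the 68 member peaks of E33 to E70, 60 overlapped a peak of the next list by at least 1 base. The same share over all peaks was not counted, so this is not read as a trait of these genes. In each stage list, peaks covered between 20.5% and 45.8% of the MYH3 and of the MYH8 transcript, so such overlaps are easily met there.

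The heavy chain peaks were many and low. MYH3 had 6, 4, 6, 5, 6 and 6 peaks from E33 to E95, and MYH8 had 6, 5, 4, 5, 5 and 7. Between 3.22% and 5.06% of the genes with a peak had 5 or more in a stage list, and both heavy chain transcripts, 6073 and 6014 bases, are long. Their folds ran from 1.28 to 3.75, and all 65 lay below the median of their list, which was 3.51 to 4.88. Of the 65 peaks, 59 had their midpoint past coding base 2500, a bound chosen after the positions were seen. That base lies at 43.0% of the coding sequence of either gene. In MYH3, the longest stretch in a peak of all 6 lists was coding bases 4618 to 5128 (chr12:55353792-55354845, introns included), whose peak had folds of 2.06, 3.20, 2.65, 2.20, 2.36 and 2.24 from E33 to E95. In MYH8 it was coding bases 3160 to 3668 (chr12:55145651-55146327, introns included), with 2.37, 3.75, 2.68, 2.15, 2.27 and 2.45. These folds come from lists of different length and are not compared between stages. MYH3 also had a peak before coding base 1000 in every list but E40, with folds of 2.08 to 2.68, and MYH8 had one there at E95, with a fold of 1.32.

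**Figure D4:**
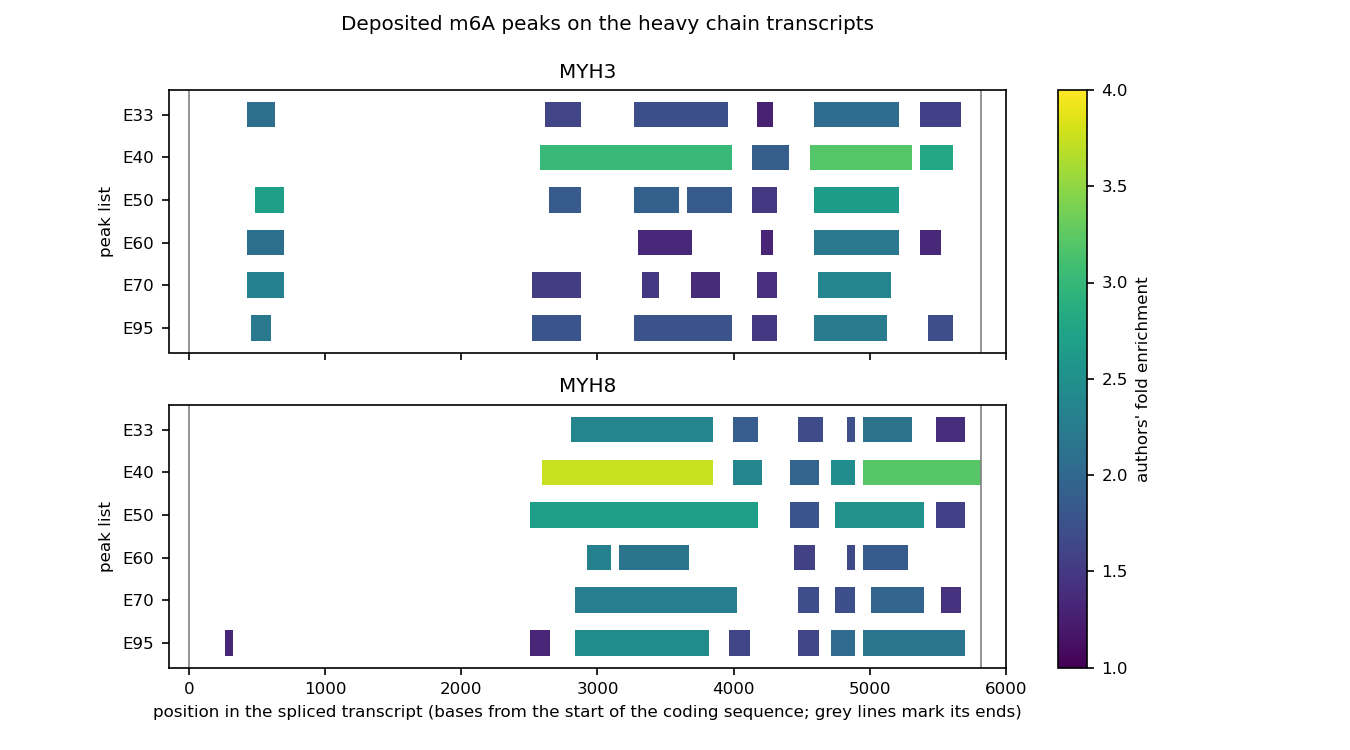
Deposited m6A peaks on the spliced MYH3 and MYH8 transcripts; the x axis is the position in bases from the start of the coding sequence, the rows are the 6 stage lists, each bar spans a peak from its first to its last transcript base, and colour is the authors' fold enrichment. Of the 65 bars, 59 are centred past base 2500, which lies at 43.0% of the coding sequence. No fold exceeds 3.75, below the median of its list.

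Coding bases in a peak of all 6 lists numbered 724 in MYH3, 12.4% of its coding sequence, and 1142 in MYH8, 19.6%, and 310 of them were aligned to each other, 42.8% of those of MYH3 and 27.1% of those of MYH8. The first and last of the 3 shared stretches are the pairs printed above, of which the last is 92.2% identical, and the one between them is 61 bases. None of the stretches common to all 6 lists held GGACT, searched on the transcript strand. Among windows of the same length as these stretches, 4.36% to 25.7% along the MYH3 transcript and 3.83% to 33.5% along the MYH8 transcript hold it, so most such windows lack it. The MYH3 transcript holds GGACT at 3 places and the MYH8 transcript at 4, of which 1 and 2 lay in a peak of any stage. Of all 44099 stage-list peaks on chromosomes, 30.8% held GGACT at a median exonic length of 210 bases, and of the 84 member peaks 13.1% did, at a median of 210.5. Peaks within a gene recur between stages, so these 84 are not independent. The shorter GGAC occurred 7.11 times per 1000 bases in all stage-list peaks, 7.47 times in MYH3 peaks and 4.77 times in MYH8 peaks. The last printed stretch held GGAC at 1 place in MYH3 and at 0 in MYH8.

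The light chain peaks were few. MYL4 had 1 peak in each list from E33 to E70 near the start of the coding sequence, with folds of 2.35, 3.50, 3.03, 2.99 and 2.99, and none at E95, where its RNA was at 12.9 to 47.1 scaled TPM. Whether the lower RNA level set the loss was not tested. The MYL3 peak was found at E70 only, with a fold of 1.52. MYL1 had a peak between RefSeq exons in all 6 lists, with folds of 2.92, 5.65, 4.12, 3.78, 3.56 and 5.01 from E33 to E95. A second MYL1 peak of 2 exon blocks began upstream of the RefSeq start, at chr15:113051718-113063112 in E33, E50 and E95 and reaching further upstream in E60 and E70. In these 5 lists, in the order of the stages, its folds were 2.26, 2.88, 7.29, 2.86 and 2.89. It was not in the E40 list. Another MYL1 peak, at chr15:113051300-113051390 over the RefSeq start itself, was in the E70 and E95 lists, with folds of 4 and 3.50. The RefSeq transcript of MYL1 has a coding sequence of 453 bases. Of the MYL1 peaks, only this last one touched that transcript, by 16 bases of its untranslated start. The 3 member peaks above their list's median were all in MYL1, at E40, E60 and E95.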

How the data were processed

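The authors deposited expression tables in TPM for the muscle input libraries and 1 m6A peak list per stage or cell preparation, with a fold of immunoprecipitated over input per peak. Per the submitters' processing notes, Trimmomatic, HISAT2 and the build Sscrofa11.1 were used. The TPM tool, the peak caller and its settings are not given in the sources used here. TPM keeps no depth, so depth is unknown.

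The 18 input libraries were compared with limma 3.58.1 (R 4.3.3; lmFit, eBayes with trend) on log2(TPM + 1) after median-ratio scaling, over the 13334 genes averaging 1 TPM or more, with Benjamini-Hochberg adjustment at 0.05. All 7 measured genes passed this filter. Fold changes on this scale understate those of low genes. Within-library ratios were set against day by permutation. Script output was tested on simulated data. Genes were named by membership, or as the 3 genes of highest correlation with a member. Of the other lists' genes, those named were chosen after their values were seen, without a fixed rule, and some genes with large changes were not named. Members and lists were chosen with earlier results of these data known. Sequences and gene structures come from RefSeq on Sscrofa11.1; 150 of 158 junctions between peak blocks lay at RefSeq introns. Alternatives were TPM as deposited, other scalings, pseudocounts and filters, 2-stage fits, a replicate block and leaving out libraries.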

Additional observations from a re-analysis of the deposited data

How the results depend on the processing

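Of 296 settings of results that answer a comparison, 268 kept their side of the threshold or stayed within 1.5 times the count, 27 moved and 1 weakened. A change of sign in a trend that did not pass in the main setting was not counted as a change. This applied to r of MYL2 over MYLPF, -0.349 over all libraries and 0.127 without E95. Of 1092 settings of single genes, 1035 were counted as unchanged, 38 lost a call, 17 gained one and 2 reversed a called change. The 2 reversed were both as deposited: MYL3 from E33 to E95 was -0.068 and MYLPF from E33 to E40 was -0.13. A change of sign in a gene not called in the main fit was counted as unchanged. Examples are MYH3 from E33 to E40 (0.47 scaled, -0.25 as deposited) and MYH8 from E70 to E95 (0.19 and -0.37). The count of called genes was 0 as deposited for E33 to E40, E40 to E50 and E60 to E70. For E40 to E50 it was also 0 after rescaling without the 2 most abundant genes, with only the libraries of the 2 stages, with the replicate block, and without both libraries high in the second most abundant gene. For E60 to E70 it was 0 with only the libraries of the 2 stages and 3 without those high libraries. Leaving out 1 library gave 0 to 4 calls for E40 to E50 and 0 to 2 for E60 to E70. After rescaling, after quantile normalization and with only 2 stages, MYLPF lost its calls from E70 to E95 (0.45, 0.31 and 0.75; adjusted p = 0.097, 0.423 and 0.122), from E60 to E70 (0.59, 0.34 and 0.81; adjusted p = 0.0878, 0.567 and 0.0944) and from E33 to E40 (0.51, 0.58 and 0.60; adjusted p = 0.06, 0.0729 and 0.068). The count for E60 to E70 stayed at 1 in the first 2 of these because MYL3 was called there. MYL1 from E40 to E50 was lost in all 3 (adjusted p = 0.181, 0.118 and 0.324). MYL3 from E33 to E95 was lost after rescaling (0.53, adjusted p = 0.11) and with only 2 stages (adjusted p = 0.0673). With peaks above their list's median fold only, 84 peaks became 3 and the genes with a peak went from 5 to 1. Without E95, r of essential over regulatory light chains was -0.43. The causes were not tested. Same-numbered libraries of different stages did not deviate together (r from -0.124 to 0.101 over 45 pairs), and the replicate block lost MYL1 from E40 to E50 (adjusted p = 0.059) and no other call of the 7. Depth, which TPM does not keep, limits the low genes to an unknown extent.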
